A study of Caenorhabditis elegans with 4 samples.

Results

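The genes described here are the 7 organizers of the neuromuscular synapse *madd-4*, *nrx-1*, *nlg-1*, *oig-1*, *oig-4*, *lev-9* and *lev-10*, which encode secreted and transmembrane proteins that gather receptors at cholinergic and GABA synapses of *C. elegans*. They were looked up by name among the 42518 gene loci of the deposited wild-type tables, and each of the 7 had exactly 1 row. The study has 4 samples, of which the 2 wild-type libraries were analysed (strain CZ631, which carries the *juIs14* transgene *Pacr-2*::*gfp*, young adults grown for 72 hr at 20°C), and the 2 *acr-2(gf)* samples (strain CZ5808, which carries the same transgene) were not analysed here. Cells were sorted by GFP from pooled animals, and the reporter labels the VA, VB, DA and DB cholinergic motoneurons of the ventral cord together with unidentified neurons of the head and tail. Nothing in the labels says whether the 2 libraries came from separate cultures, so the spread between them may be in part technical.

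At worm neuromuscular junctions, cholinergic motoneurons excite and GABAergic motoneurons relax the body-wall muscle, and each kind of receptor on the muscle is gathered opposite the matching nerve terminal. MADD-4, a punctin-like protein of the extracellular matrix, is secreted by motoneurons and specifies where receptors collect. At cholinergic junctions it acts with a muscle-made complex of the transmembrane CUB-domain protein LEV-10 and the secreted proteins LEV-9 and OIG-4, which holds the levamisole-sensitive acetylcholine receptors. At GABA junctions it acts through the muscle adhesion protein neuroligin, NLG-1, and the netrin receptor UNC-40. Neurexin, NRX-1, is the presynaptic adhesion partner of neuroligins, and OIG-1 is a secreted protein with a single immunoglobulin domain that is known for holding back synaptic remodeling in GABAergic motoneurons.

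Of the 7 organizer genes, 6 had an FPKM over 10 in both libraries, the limit of the study for an expressed gene, and *lev-9* was the exception. FPKM counts fragments per length of transcript and per depth of the library, so levels of different genes can be set side by side. Over all loci 16.2% passed this limit, and over the 18007 loci with a protein-coding name in the WBcel235 annotation 32.8% did. The paper's own list of expressed transcripts, selected with this limit, is shorter than the 6885 loci that passed here. The reason was not tested. The median of the 7 mean levels was 53.9 FPKM. The genes fell into 3 ranges of level above the limit and 1 far below it. These were 211 to 400 FPKM (*nrx-1*, *madd-4*), 48.3 to 67.0 FPKM (*oig-1*, *lev-10*), 16.9 to 35.8 FPKM (*nlg-1*, *oig-4*) and under 1 FPKM (*lev-9*).

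**Figure D1:**
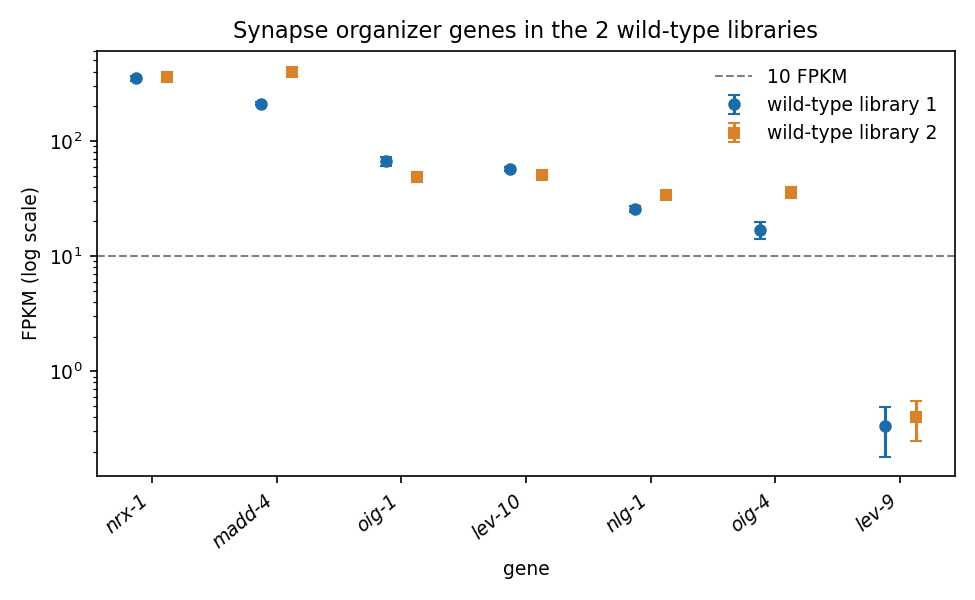
FPKM of the 7 organizer genes (log axis) in wild-type library 1 (circles) and library 2 (squares), in order of the mean, with the Cufflinks 95% interval as bars and the limit of 10 FPKM as a dashed line. Both points of *nrx-1* and *madd-4* lie above 200 FPKM, both points of *lev-9* lie below 1 FPKM, and the library points are far apart for *madd-4* and *oig-4*.

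*madd-4* (WBGene00009958, chromosome I, 8931156 to 8942197 in ce10) had 211 FPKM in library 1, with a Cufflinks 95% interval from 204 to 218, and 400 FPKM in library 2, with an interval from 388 to 413. The libraries did not overlap, and library 2 was 1.90-fold higher. The mean was 306 ± 134 FPKM (SD, n = 2), which placed the gene above 96.3% of protein-coding loci. The row sums over 2 start sites. The long and the short forms of the protein, which are known for acting at cholinergic and at GABA synapses, were therefore not separated.

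*nrx-1* (WBGene00007799, chromosome V, 10825004 to 10846401 in ce10) had the highest mean of the 7 genes. It had 351 FPKM in library 1 and 360 FPKM in library 2, with a mean of 356 ± 6.24 FPKM (SD, n = 2). The 95% intervals, from 335 to 368 and from 345 to 375, overlapped. Its row sums over 5 start sites, and the WBcel235 annotation gives 13 transcripts from 303 to 5439 bp, so the part of the short forms in this level was not separated. In the table, 10 non-coding loci lie within *nrx-1*, and 9 of them were listed at 0 in both libraries.

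*nlg-1* (WBGene00006412, chromosome X, 13625620 to 13631025 in ce10) encodes the only neuroligin of the worm. It had 25.6 FPKM in library 1 and 33.9 FPKM in library 2, with intervals from 24.3 to 27 and from 32.4 to 35.5 that did not overlap. Its mean was 29.8 ± 5.85 FPKM (SD, n = 2), above 77.9% of protein-coding loci. Neurexin transcripts were 13.7-fold those of neuroligin in library 1 and 10.6-fold in library 2, as a ratio of FPKM within each library. Transcripts of *madd-4* were 8.23-fold and 11.8-fold those of *nlg-1*.

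*lev-10* (WBGene00002977, chromosome I, 14390371 to 14400154 in ce10) had 57.0 FPKM in library 1 and 50.8 FPKM in library 2, with the mean at 53.9 ± 4.40 FPKM (SD, n = 2). The intervals, from 54.7 to 59.3 and from 48.3 to 53.3, did not overlap, and library 1 was 1.12-fold higher. The *eat-18* locus shares 1580 bp with *lev-10* on the same strand and was listed at 0 in both libraries. Reads from shared exons cannot be divided between these genes with certainty, so the value of *lev-10* may hold reads of *eat-18*.

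*oig-4* (WBGene00043050, chromosome II, 7613575 to 7614364 in ce10), which encodes the small secreted partner of LEV-10 and LEV-9, had 16.9 FPKM in library 1 and 35.8 FPKM in library 2. Its intervals, from 14.1 to 19.7 and from 32.0 to 39.7, did not overlap, and library 2 was 2.12-fold higher, the largest difference among the 7 genes. The mean was 26.4 ± 13.4 FPKM (SD, n = 2). Over 59 bp the locus overlaps that of R07G3.7 on the opposite strand, which had 18.6 FPKM in library 1 and 34.5 FPKM in library 2. The strand setting of the counting is not given in the sources used here, so reads from these 59 bp cannot be assigned to either gene.

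*lev-9* (WBGene00002976, chromosome X, 6286504 to 6291491 in ce10), which encodes a secreted protein with complement control (sushi) domains, had 0.335 FPKM in library 1 and 0.399 FPKM in library 2. Its mean was 0.367 ± 0.0451 FPKM (SD, n = 2), and 31.8% of protein-coding loci were lower. The intervals, from 0.181 to 0.489 and from 0.248 to 0.549, overlapped and did not reach 0. If their width were counting error alone, they would stand for 18.9 and 28.0 fragments. Within a library, *lev-10* was 170-fold and 127-fold above *lev-9*, and *oig-4* was 50.5-fold and 89.9-fold above it. *lev-10* was 3.37-fold and 1.42-fold above *oig-4*. Of the 3 muscle-made parts of the levamisole receptor scaffold, *lev-9* thus stood far below the others in both libraries, while the step from *lev-10* to *oig-4* was in library 2 smaller than the difference of *oig-4* between the libraries.

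*oig-1* (WBGene00003859, chromosome III, 6524049 to 6525569 in ce10) had 67.0 FPKM in library 1 and 48.3 FPKM in library 2, with intervals from 61.0 to 73.0 and from 43.7 to 52.9. The intervals did not overlap, and library 1 was 1.39-fold higher. The mean was 57.6 ± 13.3 FPKM (SD, n = 2), above 85.9% of protein-coding loci. Like *oig-4*, this gene is short, with a single annotated transcript of 500 bp against 573 bp for *oig-4*, and the FPKM of short transcripts depends on the length that Cufflinks assumes.

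The order by mean was *nrx-1*, *madd-4*, *oig-1*, *lev-10*, *nlg-1*, *oig-4* and *lev-9*. Of the 6 pairs of neighbours in this order, 3 had overlapping ranges over the libraries and changed places between them. *nrx-1* was 1.66-fold above *madd-4* in library 1, and *madd-4* was 1.11-fold above *nrx-1* in library 2. *oig-1* was 1.18-fold above *lev-10* in library 1, and in library 2 *lev-10* was 1.05-fold above *oig-1* with overlapping intervals. *nlg-1* was 1.52-fold above *oig-4* in library 1, and in library 2 *oig-4* was 1.06-fold above *nlg-1*, again with overlapping intervals. Across the other 3 steps in the order the ranges over the libraries did not overlap. *madd-4* exceeded *oig-1* by 3.15-fold and 8.29-fold, and *lev-10* exceeded *nlg-1* by 2.22-fold in library 1 and 1.5-fold in library 2. In library 2 taken alone only *lev-9* kept its place in the order by mean.

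The libraries were then compared gene by gene as log2((FPKM + 1) of library 2 over that of library 1), less its median over the 6885 expressed loci, which was 0.12. On this scale *oig-4* was at 0.92 and *madd-4* at 0.80, and 6.06% and 8.74% of expressed loci had a larger ratio. *nlg-1* was at 0.27, *lev-9* at -0.05, *nrx-1* at -0.08, *lev-10* at -0.28 and *oig-1* at -0.58. For *oig-1*, 17.5% of expressed loci had a smaller ratio. Upper-quartile scaling without centring put *nrx-1* at 0.46 and *lev-10* at 0.25, but moved the median of expressed loci to 0.53, and relative to that median they were at -0.073 and -0.28. The sign of *lev-9* depended on the pseudocount, with 0.076 after adding 0.1 in place of 1. All 7 values lay between the 5th percentile (-1.29) and the 95th percentile (0.98) of expressed loci. The median over the 7 genes was -0.05, which is the value of *lev-9* itself, and over the 6 expressed organizer genes it was 0.095.

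Of the 6 expressed organizer genes, 3 had Cufflinks intervals in library 2 wholly above those in library 1 (*madd-4*, *nlg-1*, *oig-4*), where 45.4% of expressed loci did, and 2 had intervals wholly below (*lev-10*, *oig-1*), where 30% did. In either direction 75.5% of expressed loci had intervals that did not overlap, so the intervals of Cufflinks were narrower than the spread between these libraries for most genes. With 2 libraries of a single condition no test between groups was made.

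**Figure D2:**
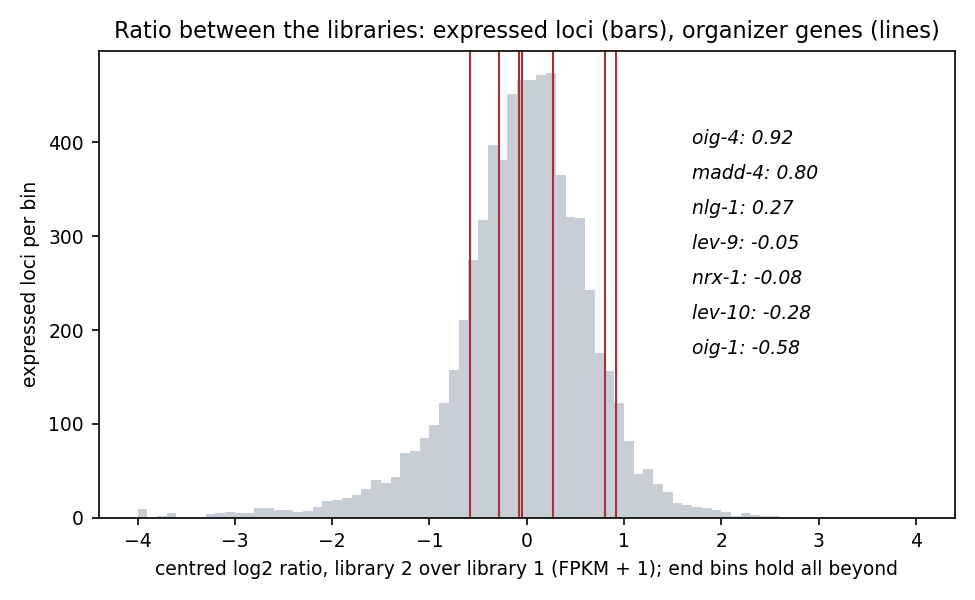
Centred log2 ratio of library 2 over library 1 for the 6885 expressed loci (bars, loci per bin of 0.1, with loci beyond the axis in the end bins) and for the 7 organizer genes (vertical lines, with their values listed). The lines run from -0.58 for *oig-1* to 0.92 for *oig-4* and lie between the 5th percentile (-1.29) and the 95th percentile (0.98) of the expressed loci. Upper-quartile scaling without centring puts *nrx-1* at 0.46 and *lev-10* at 0.25, where the median of expressed loci is 0.53.

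The sorted cells are labelled as cholinergic neurons, and marker genes of neurons and of other tissues were set beside the organizers, since several of these proteins are known to be made by muscle or by GABAergic neurons. In bulk RNA, fewer cells of a type and less RNA per cell cannot be told apart. Among pan-neuronal markers 18 of 19 were expressed, as were 4 of 4 core cholinergic and 9 of 10 ventral cord cholinergic motoneuron markers. Of the GABAergic markers 4 of 6 were expressed, and none of the 6 was listed at 0. Body-wall muscle had 10 of 14, pharyngeal muscle 2 of 5, hypodermis 6 of 10, intestine 7 of 10, germline 9 of 10 and glia 0 of 6. For comparison, 16.2% of all loci and 32.8% of protein-coding loci were expressed. The glial genes *mir-228* and *ver-1* were listed at 0 in both libraries. *mir-228* is a microRNA gene, and libraries of long RNA do not capture RNA that short, so its 0 cannot speak to glia. Others of that list were not absent, with *hlh-17* at 33.4 FPKM in library 1 and 9.49 FPKM in library 2. *fig-1* had 9.42 FPKM and 2.23 FPKM.

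Beside the muscle-made organizers *lev-9*, *lev-10* and *oig-4*, the summed level of the 14 body-wall muscle markers was 12461 FPKM in library 1 and 11756 FPKM in library 2, a fold of 0.943, and no marker was listed at 0. Its members ranged widely. The troponin C gene *pat-10* had 3693 FPKM and 3957 FPKM, while *hlh-1*, the myogenic transcription factor, had 1.95 FPKM and 2.14 FPKM, and the myosin gene *myo-3* had 8.43 FPKM and 13.6 FPKM. *lev-9* was below every one of these markers, 25.2-fold and 34.2-fold below *myo-3*. Of the 14 markers, 4 had intervals wholly higher in library 2 and 5 wholly lower. Over all expressed loci, by the shares given above, wholly higher intervals were more common than wholly lower ones. Those higher were *unc-22* (1.73-fold), *myo-3* (1.62-fold) and *unc-89* (1.53-fold), which did not pass the limit, and *pat-10* (1.07-fold). Those lower were *mlc-1* (0.75-fold), *unc-54* (0.77-fold), *lev-11* (0.81-fold), *mlc-2* (0.86-fold) and *unc-15* (0.89-fold), all expressed. On the centred scale every expressed marker was negative, from -0.53 for *mlc-1* to -0.02 for *pat-10*. Of the 4 markers under the limit, *myo-3* was at 0.52, *unc-22* at 0.40, *unc-89* at 0.39 and *hlh-1* at -0.03. On the same scale *oig-4*, which was 2.12-fold higher in library 2, was at 0.92, *lev-9* at -0.05 and *lev-10* at -0.28. The part of muscle RNA in the levels of the 3 genes was not tested.

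*oig-1* is known from GABAergic motoneurons, and *madd-4* acts at both cholinergic and GABA junctions. Beside them, the summed level of the 6 GABAergic markers was 291 FPKM in library 1 and 700 FPKM in library 2, a fold of 2.40. All 6 were higher in library 2. *unc-25*, the GABA-synthesizing enzyme, had 226 FPKM and 536 FPKM, and *unc-47*, the vesicular GABA transporter, had 14.2 FPKM and 36.1 FPKM. *madd-4* was higher in library 2, as these markers were, and *oig-1* was lower. The summed level of the 4 core cholinergic markers differed 1.35-fold in the same direction, and all 4 were higher in library 2. For the 10 ventral cord cholinergic motoneuron markers the fold was 1.46, with 8 higher, and for the 19 pan-neuronal markers 1.09, with 17 higher. The share of all loci higher by value alone was not computed. Intervals wholly higher in library 2 were found for 6 GABAergic, 3 core cholinergic, 8 ventral cord and 16 pan-neuronal markers, and for 45.4% of expressed loci. Of the GABAergic markers 2 were not expressed. Over expressed loci the median fold of FPKM + 1 was 1.09. The median centred ratio was 0.96 for GABAergic, 0.19 for core cholinergic, 0.36 for ventral cord and 0.38 for pan-neuronal markers. The part of GABAergic RNA in *madd-4* and *oig-1* was not tested.

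The subunit genes of the receptors that these proteins cluster spanned a wide range of levels. Of 7 subunit genes 3 were expressed, namely *unc-49*, *unc-38* and *unc-63*, which is 42.9% against 32.8% of protein-coding loci, and the median of the 7 means was 7.60 FPKM. *unc-49*, which encodes the GABA-A receptor subunits of muscle, had 260 FPKM in library 1 and 490 FPKM in library 2. It was 1.23-fold above *madd-4* in library 1 and 1.22-fold above it in library 2, and 10.1-fold and 14.5-fold above *nlg-1*. Among the subunits of the levamisole receptor, *unc-38* had 14.7 FPKM and 49.8 FPKM, *unc-63* had 11.8 FPKM and 22.8 FPKM, and *lev-1* had 2.93 FPKM and 12.3 FPKM. *unc-29*, another subunit of this receptor, had 1.40 FPKM and 0.645 FPKM, and *lev-8* was listed at 0 in library 1 and had 0.871 FPKM in library 2. *acr-16*, the subunit of the nicotine-sensitive muscle receptor, had 5.76 FPKM and 5.61 FPKM. *lev-10* was thus 40.8-fold and 78.7-fold above *unc-29*, but 4.84-fold and 2.22-fold above *unc-63*. Whether the RNA of these subunit genes came from muscle or from the sorted neurons themselves was not tested.

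Of 9 genes for receptor assembly and accessory factors, 8 had a row (*unc-74* was not found by that name) and 6 were expressed. This is 75% against 32.8% of protein-coding loci. The median was 32.8 FPKM. The chaperone gene *ric-3* had 14.1 FPKM and 50.3 FPKM, *unc-50* had 59.5 FPKM and 37.0 FPKM, and *rsu-1* had 114 FPKM and 113 FPKM. *molo-1*, the auxiliary subunit of levamisole receptors, had 5.79 FPKM and 2.58 FPKM. Of the 8 genes with a row, 3 had intervals wholly higher in library 2 (*ric-3*, *emc-6*, *nra-2*). The 2 with intervals wholly lower were *unc-50* and *molo-1*, of which *molo-1* was not expressed. Over all expressed loci wholly higher intervals were likewise the more common, by the shares given above.

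Of 12 partners and scaffolds 9 were expressed, which is 75% against 32.8% of protein-coding loci, with a median of 47.5 FPKM. *casy-1*, the calsyntenin gene, had 1792 FPKM and 1748 FPKM and stood 5.10-fold and 4.86-fold above *nrx-1*. The netrin receptor gene *unc-40* had 9.75 FPKM in library 1 and 20.1 FPKM in library 2 and so missed the limit in 1 library, and *madd-4* was 21.7-fold and 19.9-fold above it. *frm-3*, which encodes a FERM protein that anchors GABA receptors, had 15.2 FPKM and 15.1 FPKM. The CASK gene *lin-2* had 58.7 FPKM and 93.0 FPKM, and the syndecan gene *sdn-1* had 156 FPKM and 112 FPKM. *nlr-1*, a neurexin-like gene, had 22.1 FPKM and 44.8 FPKM, so that *nrx-1* was 15.9-fold and 8.04-fold above it. *bam-2* and *itx-1*, the other neurexin-like genes of the list, did not pass, at 22.9 FPKM and 8.68 FPKM for *bam-2* and 0.180 FPKM and 1.34 FPKM for *itx-1*.

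**Figure D3:**
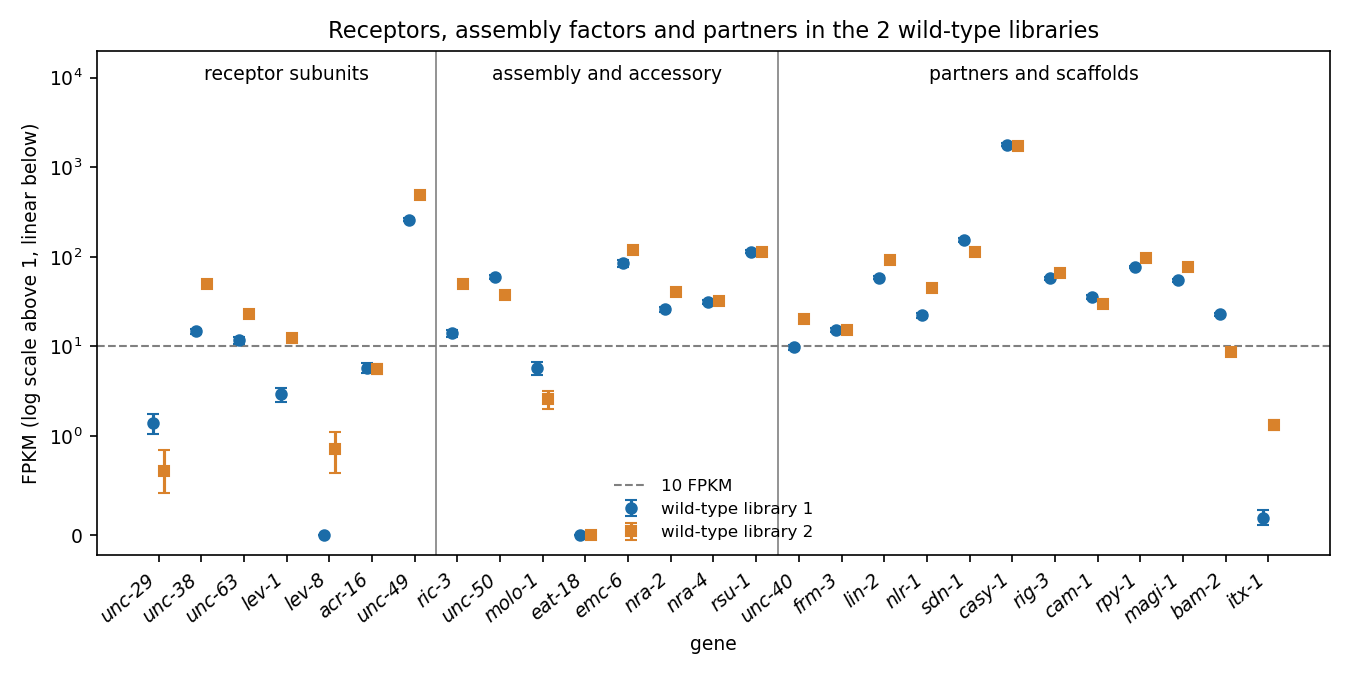
FPKM of receptor subunit genes, assembly and accessory factors, and partners and scaffolds in library 1 (circles) and library 2 (squares), with Cufflinks 95% intervals as bars. The axis is logarithmic above 1 FPKM and linear below, the dashed line marks 10 FPKM, and *unc-49* (260 and 490 FPKM) and *casy-1* (1792 and 1748 FPKM) stand highest in their groups.

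*oig-1* and *oig-4* belong to a family of 8 names in the table that begin with *oig*, of which 6 were expressed. This is 75% against 16.2% of all loci. *oig-5* was highest at 657 FPKM and 694 FPKM, 9.80-fold and 14.4-fold above *oig-1*. *oig-6* had 221 FPKM and 253 FPKM, *oig-2* had 109 FPKM and 142 FPKM, and *oig-3* had 44.4 FPKM and 41.8 FPKM. *oig-7* was listed at 0 in both libraries, and *oig-8* had 0.0426 FPKM in library 1, with a lower bound of 0, and 4.23 FPKM in library 2. By mean level *oig-5*, *oig-6* and *oig-2* stood above *oig-1*, and *oig-3* stood between *oig-1* and *oig-4*. The family members that are known as synapse organizers were therefore not those with the most RNA in these libraries.

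**Figure D4:**
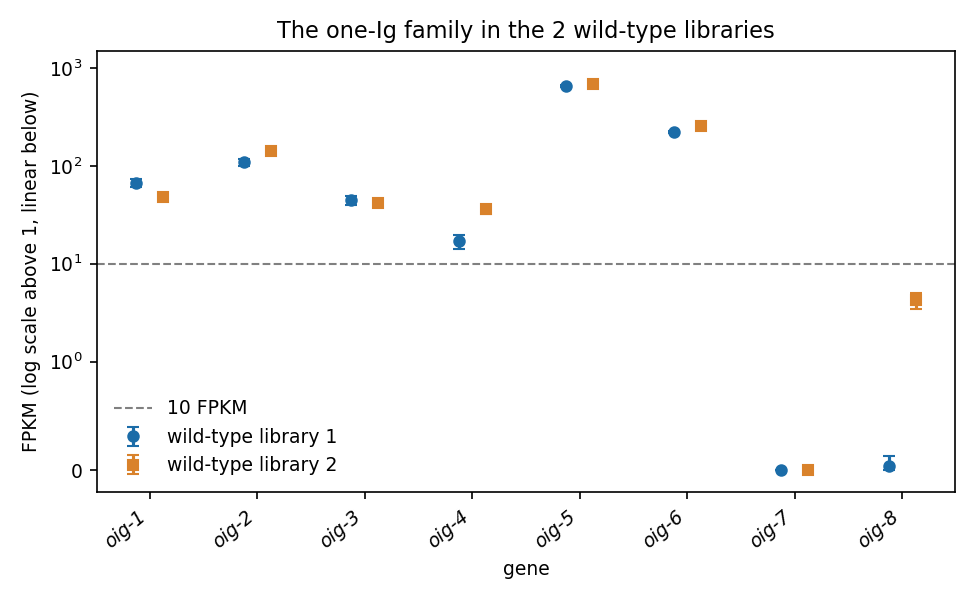
FPKM of the 8 *oig* genes in library 1 (circles) and library 2 (squares), with Cufflinks 95% intervals as bars and a dashed line at 10 FPKM. The axis is logarithmic above 1 FPKM and linear below, *oig-5* stands highest at 657 and 694 FPKM, and *oig-7* lies at 0 in both libraries.

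For each organizer gene the closest of 127 other genes of the lists was found by the distance of log2(FPKM + 1) over the 2 libraries. Over 2 libraries this compares 2 levels and is no measure of shared control. *lev-10* lay closest to *acr-2* (58.3 FPKM and 53.1 FPKM, distance 0.07) and then to *lgc-46* (distance 0.21), both ventral cord motoneuron markers. *oig-1* lay closest to the same genes, at 0.13 from *lgc-46* and 0.24 from *acr-2*. *madd-4* was nearest to *cgh-1* (0.19) and *snt-1* (0.22), *nrx-1* to *unc-18* (0.43) and *cpg-2* (0.46), and *nlg-1* to *sqt-3* (0.26) and *nra-2* (0.26). *oig-4* was nearest to the GABAergic marker *unc-47* (0.24) and to *maco-1* (0.33), and *lev-9* to *bli-1* (0.49) and *lev-8* (0.59), which were both listed at 0 in library 1. The nearest genes thus came from lists of several tissues.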

How the data were processed

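The authors isolated the cells by FACS, prepared libraries with the Illumina TruSeq kit, mapped single-end reads with TopHat and computed FPKM per gene with Cufflinks. The deposited FPKM values, with the bounds of their 95% interval, are scaled to transcript length and to the mapped fragments of each library. The submitters' processing notes name the build ce10; versions, annotation and strand setting are not given in the sources used here. The condition of the 2 tables comes from the study's design text, and library numbers are names only. Tables were joined on name, start sites and locus, after 11 names that had turned into dates in library 1 were restored. Starts were moved to count from 1. Of several loci with 1 symbol the highest by mean was kept. A gene was called expressed over 10 FPKM in both libraries, and 1 was added before logarithms. Loci were not moved between builds; transcripts, strands, IDs and biotypes come from WBcel235 (Ensembl).

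The members and lists were chosen with earlier results of these data known. Genes named are the 7 members, genes of the 4 pathway and 10 marker lists, and the 2 nearest list genes of each member. No read counts were used. The paper gives a range of single-end reads per sample, but the mapped reads of each library, and those behind each FPKM, are not known here. A fragment number was read from an interval as if its half-width were 2 SD of counting error. For loci with 1 annotated transcript and a number from 1.5 to 10, 60.0% of 95 in library 1 and 79.3% of 1558 in library 2 came within 0.02 of a whole number, so the reading holds only in part. *lev-9*, with 3 annotated transcripts and 18.9 and 28.0 fragments by this reading, lay outside these loci, so its own numbers were not checked. The ratio was tested on simulated data. Alternatives were other limits, the lower bound, the mean, TPM, upper-quartile scaling, other pseudocounts and centring, summed loci and each library left out. Python 3.11.15, numpy 2.4.6, pandas 2.3.3 and matplotlib 3.10.9 were used.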

Additional observations from a re-analysis of the deposited data

How the results depend on the processing

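The number of expressed organizer genes was 6, and from 5 to 6 under the alternatives, with 5 at a limit of 20 FPKM and on the TPM scale, where *oig-4* fell under the limit, and 6 with either library left out. The order by mean kept from 1 to 7 places of 7 with 1 library left out. The median log2 ratio of the 7 genes, -0.05 as reported, was 0.076 with a pseudocount of 0.1 and 0.13 with 0. It was 0.067 without centring and 0.46 after upper-quartile scaling, where the median of expressed loci was 0.12 and 0.53. As reported and in the first 3 of these alternatives, the gene at the median was *lev-9*, whose level is near the pseudocount. The ratio of *nrx-1*, -0.08 as reported, was 0.036 without centring and 0.46 after upper-quartile scaling, and that of *lev-10*, -0.28 as reported, was 0.25 after upper-quartile scaling. Both settings moved the loci together, and relative to the median of expressed loci *nrx-1* was at -0.083 and -0.073 and *lev-10* at -0.28. Dividing by the library sum (TPM) multiplies every gene of a library by the same factor and lowered the mean by more than its SD for 5 of 7 genes. The ratio between libraries cannot be computed with a library left out. No paired analysis was possible because a single group was analysed. Of the 14 lists, 3 changed their number of expressed genes by over 1.5 times at a limit of 1 FPKM and 3 at 20 FPKM, and with library 2 left out the glial list had 1 expressed gene in place of 0. The mapped reads of each library behind the values are not known here.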

Other observations

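The low end of the tables differed between the libraries, which bears on receptor and *oig* genes listed at or near 0. Loci listed at 0 numbered 29411 in library 1 and 25726 in library 2. Loci above 0.1 and up to 1 FPKM, the range that holds *lev-9* in both libraries, numbered 845 in library 1 and 2935 in library 2. Loci whose interval, read as counting error, stood for 1.5 to 10 fragments numbered 161 and 2079. No explanation of this difference was tested.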
